A study of Mus musculus with 24 samples.

Results

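The comparison described here set brains of tumor-free mice that received cranial radiation, temozolomide and Shef6 vesicles against untreated brain, and asked which panel genes still differed from untreated brain in animals given the vesicles. It used 7 of the 24 samples of the series, chosen by the group in their titles. The treated animals (RT-TMZ + Shef6 EV, n = 3) received 3 fractions of 9 Gy to the head, temozolomide at 25 mg/kg alongside the radiation and at 66.7 mg/kg afterwards, and then 4 weekly retro-orbital injections of extracellular vesicles secreted by the human neural stem cell line Shef6. The untreated animals (Control + Veh, n = 4) received sterile vehicle. A further group, irradiated and drug-treated animals given vehicle in place of vesicles (RT-TMZ + Veh, n = 4), is given beside the others where it helps to read a value. All were male C57BL/6J mice aged 27 weeks that carried no tumor, and all were perfused before the tissue was taken. The labels call the tissue brain. A figure legend of the study places these data in hippocampus, while its methods describe dissection of prefrontal cortex as well as hippocampus, so the region of each sample is not settled. Nothing in the labels ties a sample to more than 1 animal.

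RNA was measured on a mouse neuroinflammation panel of 757 probes read by direct digital counting of barcoded probes, with no amplification step. Of the probes, 703 carried a gene symbol here and 54 did not. Probes without a symbol were tested but are not described singly. Values are log2 normalized counts throughout, so a difference of 1 is a 2-fold difference. The spacing of the lowest values allowed the total count of each sample to be estimated. The estimates ran from 1184341 to 1378581 in the vesicle-treated group and from 1285701 to 1435775 in Control + Veh. A mean under 20 normalized counts (4.32 on the log2 scale) was treated as background. In each sample some genes shared the lowest value of that sample, 21 to 51 genes in RT-TMZ + Shef6 EV and 32 to 46 genes in Control + Veh, and a fold change against such a value is limited by it. Correlations between samples of a group were 0.98 to 0.99 in RT-TMZ + Shef6 EV and 0.99 to 0.996 in Control + Veh, over genes that are not independent replicates. The mean of the sample medians differed by -0.0033 between the groups (exact two-sided permutation p = 0.971, the smallest possible p being 0.0286).

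Radiation and alkylating drugs such as temozolomide damage DNA, and the tumor suppressor p53 answers by switching on genes that halt the cell cycle, among them Cdkn1a, which encodes the inhibitor p21. Microglia, the resident macrophages of the brain, depend on signaling through the receptor Csf1r and carry a set of genes that mark their resting state. When they are activated they lower parts of that set and raise phagocytic receptors, complement components and interferon-induced genes. The vesicles are membrane-bound particles that carry proteins and RNAs from the cells that release them.

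Against Control + Veh, 41 of 757 probes passed the test in RT-TMZ + Shef6 EV (limma, adjusted p under 0.05). Of all probes tested, 3.96% passed as higher (30, of which 25 carried a symbol) and 1.45% passed as lower (11, all with a symbol). The counts of called members given below for single lists are to be read beside these shares. Under quantile normalization the split was 19 higher and 19 lower. Among named genes the rises were led by Lilrb4a, an inhibitory receptor of myeloid cells, at 3.7-fold, and by Cdkn1a at 3.53-fold. The falls were led by Tnfrsf25, a death-domain receptor best known from T cells, at 2.53-fold, and included Csf1r at 1.76-fold. At least a 2-fold change was seen for 13 of the rises and 1 of the falls. In all 41 the 3 RT-TMZ + Shef6 EV values lay outside the range of the 4 Control + Veh values, while over the whole panel 80 probes were higher and 61 lower without overlap, these included. The median difference over all probes was 0.04. Whether or not they passed, 439 probes were higher and 318 lower, and the splits of single lists given below are to be read beside these counts. The plot of level against change shows that the largest differences among the genes that passed were at low to middle levels. Those of them at the highest levels moved by small amounts.

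**Figure D1:**
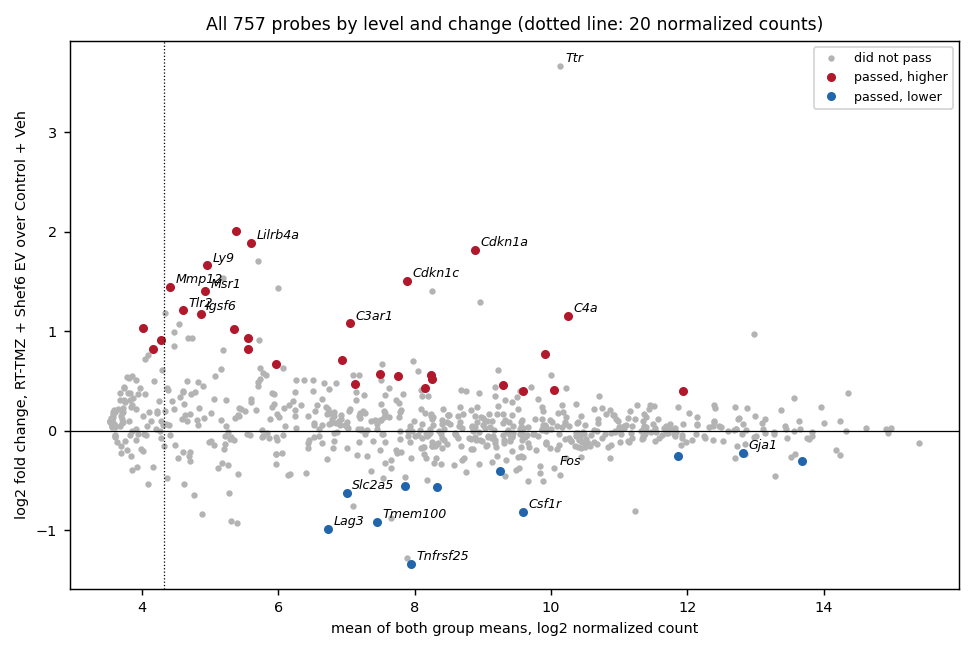
Each point is 1 of 757 probes, with the mean of the 2 group means on the x axis (log2 normalized count) and the log2 fold change of RT-TMZ + Shef6 EV over Control + Veh on the y axis. Red points passed the test as higher (30), blue points passed as lower (11), grey points did not pass, and the dotted line marks 20 normalized counts. Ttr has the largest difference of all probes (3.67) but did not pass.

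The number of calls moved with single samples. It was 53, 12 and 115 without RT-TMZ + Shef6 EV replicate 1, 2 and 3 in turn, and 8, 24, 16 and 34 without Control + Veh replicate 1, 2, 3 and 4. Of the 36 named genes that passed, 7 passed in each of those 7 fits: Cdkn1a, Lilrb4a, Ly9, C4a and C3ar1 among the rises and Csf1r and Tmem100 among the falls. The other 29 lost the call in at least 1 of them. All 41 kept their direction in each of the 15 alternatives run, which include those 7 fits. Of the 7 named genes that passed in each such fit, only Cdkn1a passed in all 15 alternatives. Csf1r and Tmem100 passed in 14, and Lilrb4a, Ly9, C4a and C3ar1 in 13. Their calls were lost in the settings that changed the test or added the replicate number as a block.

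Cdkn1a held 9.76, 10.03 and 9.60 in RT-TMZ + Shef6 EV brains, against 7.82, 7.93, 7.88 and 8.28 in Control + Veh brains. The lowest vesicle-treated value stood well above the highest untreated one. The difference was 1.82 ± 0.14 (SE), or a geometric mean of 889 against 252 normalized counts (limma, adjusted p = 0.00158), and it passed in all 15 alternatives, with an adjusted p of at most 0.0363. RT-TMZ + Veh brains held 9.41, 9.67, 9.83 and 9.67, a range that overlapped that of the RT-TMZ + Shef6 EV brains.

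Cdkn1c encodes p57, a related inhibitor of cyclin-dependent kinases. It read 7.91, 8.95 and 9.08 in RT-TMZ + Shef6 EV brains, against 7.05, 7.19, 6.59 and 7.72 in Control + Veh brains. Replicate 1 lay close to the highest untreated value. The difference was 1.51 ± 0.34 (SE; limma, adjusted p = 0.0493), and leaving out any 1 of 5 samples ended the call, which had an adjusted p of 0.198 with RT-TMZ + Shef6 EV replicate 2 left out. RT-TMZ + Veh brains spread from 6.68 to 8.96.

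These were the only 2 of the 17 measured genes on the p53 list that passed, and both were higher. The list as a whole had 12 members higher and 5 lower, with a median difference of 0.17 against 0.04 over all probes. Mdm2, the p53-induced ubiquitin ligase that degrades p53, read 10.33, 10.54 and 10.50 in RT-TMZ + Shef6 EV brains, against 10.47, 10.57, 10.46 and 10.39 in Control + Veh brains, and was chosen for mention after its values were seen. Its difference was -0.02, with a 95% interval of -0.18 to 0.14. Tnfrsf10b, a p53-responsive death receptor, held 5.43, 5.95 and 5.39 in RT-TMZ + Shef6 EV brains, against 5.08, 4.60, 4.46 and 4.99 in Control + Veh brains. The groups did not overlap, but the difference of 0.81 ± 0.21 (SE) did not pass (limma, adjusted p = 0.0785).

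Of 35 genes of DNA damage signaling and repair, none passed in limma. The smallest unadjusted p in that list belonged to Top2a, a topoisomerase of dividing cells, at 4.65, 4.01 and 4.73 in RT-TMZ + Shef6 EV brains and 5.60, 5.25, 5.26 and 5.10 in Control + Veh brains. Its difference of -0.84 ± 0.21 (SE) had an adjusted p of 0.0704. The list's median difference was 0.02. On the proliferation list of 21 genes the only members that passed were the 2 kinase inhibitors already named, which restrain the cycle. Of 37 apoptosis genes 1 rose, Tnfrsf1a, where 3.96% of all probes passed as higher.

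Mgmt encodes the enzyme that removes methyl groups from guanine, the lesion through which temozolomide kills cells. It was on none of the lists and is named because of its values. It held 6.17, 6.38 and 6.35 in RT-TMZ + Shef6 EV brains, against 5.75, 5.54, 5.77 and 5.47 in Control + Veh brains, with no overlap. The difference of 0.67 ± 0.13 (SE) passed (limma, adjusted p = 0.0286) and was 0.79 ± 0.13 (SE) in RT-TMZ + Veh over Control + Veh. It passed in 2 of the 7 fits that left out a sample.

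**Figure D2:**
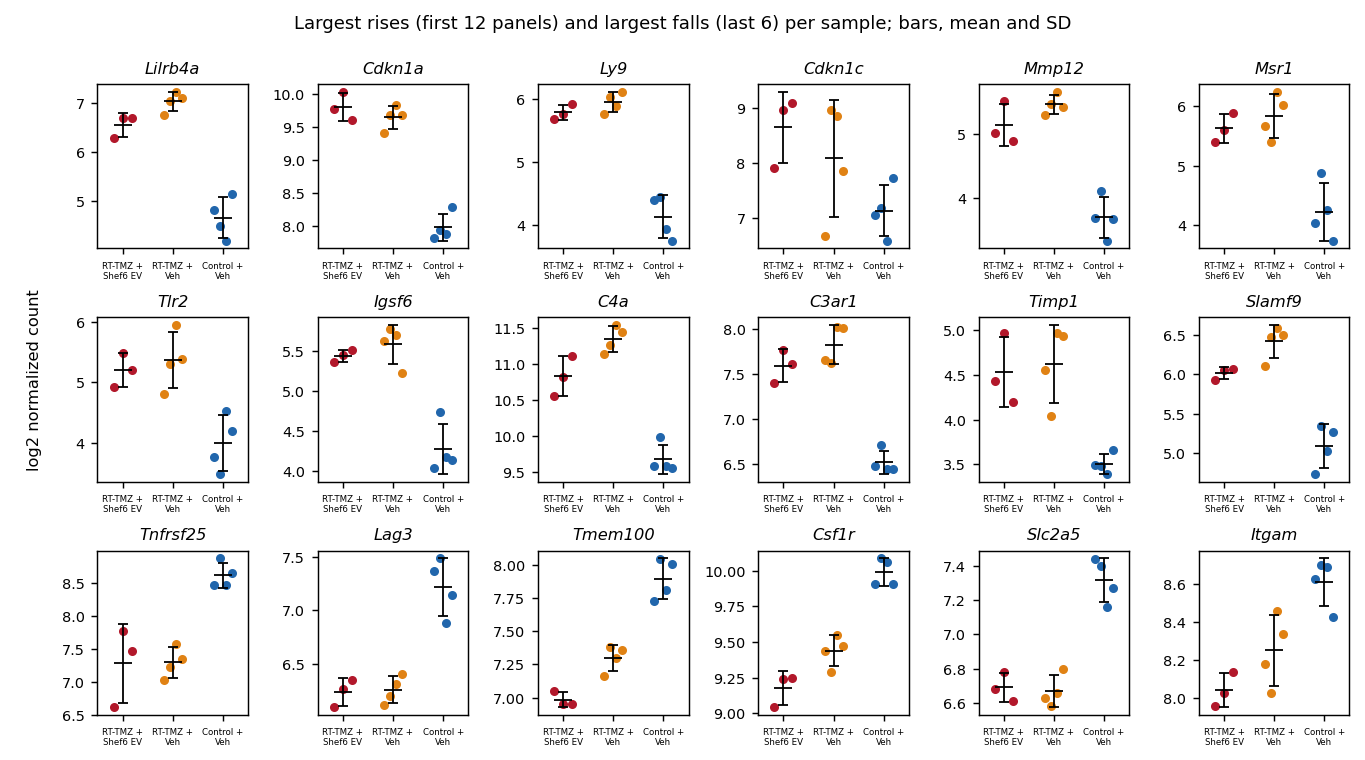
Log2 normalized counts (y axis, own scale per panel) of the 12 largest rises and the 6 largest falls that passed in RT-TMZ + Shef6 EV over Control + Veh. Each point is 1 brain sample, with the 3 of RT-TMZ + Shef6 EV on the left, the 4 of RT-TMZ + Veh in the middle and the 4 of Control + Veh on the right, and bars are mean and SD. In each panel the RT-TMZ + Shef6 EV points lie clear of the Control + Veh points, most narrowly for Cdkn1c (lowest 7.91 against highest 7.72).

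Of 23 measured genes of activated and disease-associated microglia, 6 rose, none fell and 17 did not pass. In all 18 were higher and 5 lower, and the median difference was 0.20. The 6 were Lilrb4a, Msr1, Tlr2, Slamf9, Cd84 and Lamp2. Without RT-TMZ + Shef6 EV replicate 2 or without Control + Veh replicate 1, only 1 of the list passed.

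Lilrb4a held 6.27, 6.68 and 6.69 in RT-TMZ + Shef6 EV brains, against 4.82, 4.49, 4.18 and 5.14 in Control + Veh brains. More than a whole log2 unit separated the groups. The difference was 1.89 ± 0.24 (SE; limma, adjusted p = 0.00762). Its near-identical neighbor Lilrb4b could share probe signal. Msr1, a scavenger receptor for modified lipoproteins, read 5.40, 5.60 and 5.89 in RT-TMZ + Shef6 EV brains, against 4.04, 4.88, 4.26 and 3.74 in Control + Veh brains. Untreated brains varied more than treated ones, and the difference was 1.40 ± 0.27 (SE; limma, adjusted p = 0.0296). Tlr2, the receptor for bacterial lipoproteins, held 4.93, 5.48 and 5.20 in RT-TMZ + Shef6 EV brains, against 3.77, 3.48, 4.52 and 4.20 in Control + Veh brains. The Control + Veh mean was under background, and the difference of 1.21 ± 0.27 (SE; limma, adjusted p = 0.0441) is measured against that level.

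Slamf9 and Cd84 belong to the SLAM family of immune cell receptors, as does Ly9. Slamf9 read 5.93, 6.05 and 6.07 in RT-TMZ + Shef6 EV brains, against 4.73, 5.34, 5.02 and 5.27 in Control + Veh brains. Cd84 read 7.16, 7.41 and 7.31 in RT-TMZ + Shef6 EV brains, against 6.60, 6.75, 6.59 and 6.40 in Control + Veh brains. Ly9 read 5.68, 5.76 and 5.91 in RT-TMZ + Shef6 EV brains, against 4.39, 4.43, 3.93 and 3.74 in Control + Veh brains. For each of these the vesicle-treated brains lay close together and above all untreated ones. The differences were 0.93 ± 0.17 for Slamf9 (limma, adjusted p = 0.0239), 0.71 ± 0.12 for Cd84 (adjusted p = 0.0174) and 1.66 ± 0.20 for Ly9 (adjusted p = 0.00566; all SE), and of the 3 only Ly9 passed in each fit that left out a sample. Slamf8, from the same family, held 4.37, 4.32 and 4.73 in RT-TMZ + Shef6 EV brains, against 3.49, 4.31, 3.39 and 3.66 in Control + Veh brains, with 2 untreated samples at their lowest value. Its difference of 0.76 ± 0.24 (SE) did not pass (limma, adjusted p = 0.123).

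In the promoter windows that RefSeq gives for these genes (250 bases before to 50 bases after the annotated start, mouse build GRCm38.p6), 2 short motifs were searched on both strands. They were the core bound by the myeloid factor PU.1, here GAGGAAGT, and the interferon-stimulated response element, here GAAANNGAAA. Windows were found for 18 of the 25 named genes that rose and for 8 of the 11 that fell. The PU.1 core was in those of Slamf9 and Mmp12 and the response element in those of Ifih1 and Ifitm3, among the rises, and neither motif was in the windows of the falls. Over 32851 windows of all genes the PU.1 core was in 3.2% and the response element in 3.44%, and over the panel's 749 windows in 3.6% and 5.87%. The matches are descriptions of letters only, and the windows of these 4 genes are shown because they held a match. The share of matches among the rises was not tested against that over the panel. Capitals mark the motif, and that of Mmp12 reads on the opposite strand.
Slamf9, chr1:172475110-172475359, plus strand, the 250 bases before the start: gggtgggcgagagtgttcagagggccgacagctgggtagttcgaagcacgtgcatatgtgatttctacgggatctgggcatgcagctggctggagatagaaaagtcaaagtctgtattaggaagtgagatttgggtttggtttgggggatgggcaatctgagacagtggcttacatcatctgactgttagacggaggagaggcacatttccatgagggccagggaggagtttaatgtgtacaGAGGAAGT
Mmp12, chr9:7344147-7344396, plus strand, the 250 bases before the start: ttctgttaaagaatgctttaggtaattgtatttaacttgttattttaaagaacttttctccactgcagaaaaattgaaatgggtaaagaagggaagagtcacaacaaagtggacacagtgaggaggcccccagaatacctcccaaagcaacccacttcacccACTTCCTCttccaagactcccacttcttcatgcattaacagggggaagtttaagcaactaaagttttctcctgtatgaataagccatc
Ifih1, chr2:62646206-62646235, minus strand, 30 bases after the start: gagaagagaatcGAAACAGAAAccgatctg
Ifitm3, chr7:141010715-141010744, minus strand, 30 bases from the start, with 2 matches: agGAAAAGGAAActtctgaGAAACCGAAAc

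Of 17 measured genes of resting microglia, the homeostatic list, 4 fell, 1 rose and 12 did not pass. Over the list 13 members were lower and 4 higher, and the median difference was -0.19. The falls were Csf1r, Slc2a5, Itgam and Sall1, and the rise was Fcrls. Csf1r alone of the list passed without Control + Veh replicate 1. These are bulk samples, in which fewer microglia and less RNA per microglial cell cannot be told apart.

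Csf1r, the receptor on which microglial survival depends, held 9.04, 9.24 and 9.25 in RT-TMZ + Shef6 EV brains, against 9.91, 10.09, 10.06 and 9.91 in Control + Veh brains. The gap between the groups was several times the spread inside either. The difference was -0.82 ± 0.08 (SE; limma, adjusted p = 0.00254). It was -0.56 ± 0.07 in RT-TMZ + Veh over Control + Veh and -0.26 in RT-TMZ + Shef6 EV over RT-TMZ + Veh (95% interval -0.46 to -0.06; limma, adjusted p = 0.399).

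Sall1, a transcription factor that keeps microglial identity, read 9.03, 9.11 and 9.02 in RT-TMZ + Shef6 EV brains, against 9.40, 9.58, 9.40 and 9.44 in Control + Veh brains. Itgam, the integrin chain CD11b and part of complement receptor 3, read 7.96, 8.03 and 8.14 in RT-TMZ + Shef6 EV brains, against 8.63, 8.70, 8.69 and 8.43 in Control + Veh brains. Slc2a5, a fructose transporter found on microglia, read 6.68, 6.78 and 6.61 in RT-TMZ + Shef6 EV brains, against 7.44, 7.40, 7.16 and 7.27 in Control + Veh brains. All 3 were lower without overlap, by -0.40 ± 0.07, -0.57 ± 0.09 and -0.63 ± 0.11 in that order (SE; limma, adjusted p = 0.0174, 0.0174 and 0.0179). Tmem119 and P2ry12, the surface markers most often used for microglia and named here as members of the marker set, just missed. Tmem119 read 8.93, 9.05 and 9.31 in RT-TMZ + Shef6 EV brains, against 9.59, 9.62, 9.62 and 9.38 in Control + Veh brains (difference -0.46; limma, adjusted p = 0.0518). P2ry12 read 9.62, 9.56 and 9.72 in RT-TMZ + Shef6 EV brains, against 10.13, 10.25, 10.05 and 9.80 in Control + Veh brains (difference -0.42; limma, adjusted p = 0.0676). The summed level of the 5 microglial markers, Tmem119, P2ry12, Cx3cr1, Csf1r and Sall1, was 11.69 to 11.89 in RT-TMZ + Shef6 EV brains, 11.9 to 12.06 in RT-TMZ + Veh brains and 12.08 to 12.37 in Control + Veh brains.

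On the resting list 3 members were higher without overlap, and the largest difference, 0.91, did not pass. Fcrls, a microglial Fc receptor-like protein, was the only member to pass as higher. It held 9.62, 9.82 and 9.92 in RT-TMZ + Shef6 EV brains, against 9.36, 9.42, 9.45 and 9.32 in Control + Veh brains. The difference of 0.40 ± 0.08 (SE) passed (limma, adjusted p = 0.0327) but in only 2 of the 7 fits without a sample. Mpeg1, a pore-forming protein of macrophages, and Fcgr2b, the inhibitory Fc receptor for IgG, were on none of the lists and also rose, by 0.46 ± 0.09 and 0.57 ± 0.11 (SE; limma, adjusted p = 0.0296 and 0.0265). Each passed in 3 of those 7 fits.

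Of 10 complement genes, 2 rose, 1 fell and 7 did not pass, and 9 were higher, with a median difference of 0.36. C4a held 10.56, 10.82 and 11.11 in RT-TMZ + Shef6 EV brains, against 9.58, 9.98, 9.59 and 9.55 in Control + Veh brains. The difference was 1.16 ± 0.15 (SE; limma, adjusted p = 0.00792). Its probe may also read C4b, the near-identical mouse C4 gene. RT-TMZ + Veh brains were higher still, at 11.14, 11.26, 11.54 and 11.44, without overlap with the RT-TMZ + Shef6 EV brains, and the difference between these groups was -0.52 (95% interval -0.85 to -0.18), which did not pass (limma, adjusted p = 0.388).

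C3ar1, the receptor for the complement fragment C3a, read 7.40, 7.77 and 7.61 in RT-TMZ + Shef6 EV brains, against 6.47, 6.71, 6.44 and 6.44 in Control + Veh brains. The difference was 1.08 ± 0.13 (SE; limma, adjusted p = 0.00566). The third member that passed was the receptor chain Itgam, already given among the falls. C1qa, a chain of the C1q complex that opens the classical cascade, read 10.66, 10.75 and 10.82 in RT-TMZ + Shef6 EV brains, against 10.49, 10.63, 10.54 and 10.45 in Control + Veh brains (difference 0.22; limma, adjusted p = 0.0955). It did not pass, and is named after its values were seen.

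Of 21 interferon-response genes, 2 rose and 19 did not pass, while 19 were higher and 2 lower. The list's median difference of 0.36 compares with 0.04 over all probes. Of its 21 members 8 were higher without overlap between the groups, and of all 757 probes 80 were. Ifitm3, a membrane protein that blocks virus entry, held 10.30, 10.17 and 10.44 in RT-TMZ + Shef6 EV brains, against 9.50, 9.77, 9.30 and 9.56 in Control + Veh brains. The difference was 0.77 ± 0.12 (SE; limma, adjusted p = 0.0151). Ifih1, the sensor of double-stranded RNA also called MDA5, read 8.04, 8.16 and 7.89 in RT-TMZ + Shef6 EV brains, against 7.44, 7.71, 7.31 and 7.47 in Control + Veh brains. The difference was 0.55 ± 0.12 (SE; limma, adjusted p = 0.0439). These are the genes whose windows with the response element are printed above. Neither passed without Control + Veh replicate 1 (adjusted p = 0.0574 for Ifitm3 and 0.126 for Ifih1), and none of the list did.

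Of 6 antigen presentation genes none passed. Cd74, the invariant chain of MHC class II, had the smallest p, at 8.52, 9.17 and 9.16 in RT-TMZ + Shef6 EV brains, against 7.69, 7.04, 7.07 and 8.39 in Control + Veh brains. The lowest treated value stood just above the highest untreated one, and the difference of 1.40 ± 0.35 (SE) missed the threshold (limma, adjusted p = 0.0656).

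Among 33 chemokines, cytokines and their receptors, 1 rose, 1 fell and 31 did not pass. The fall was Csf1r. The rise was Tnfrsf1a, the main TNF receptor, at 8.25, 8.57 and 8.75 in RT-TMZ + Shef6 EV brains, against 8.01, 8.07, 7.81 and 7.95 in Control + Veh brains. Its difference of 0.56 ± 0.13 (SE; limma, adjusted p = 0.0493) lost the call in 5 of the 7 fits that left out a sample. Il15ra, a receptor chain for interleukin 15, held 6.66, 6.65 and 6.61 in RT-TMZ + Shef6 EV brains, against 6.39, 6.68, 6.14 and 6.58 in Control + Veh brains. The groups overlapped, and the difference was 0.19 (95% interval -0.14 to 0.53).

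Of 22 Toll-like receptor and NF-kappa-B genes, Tlr2 alone passed, and the median difference was 0.01. Of 21 autophagy and lysosome genes 2 rose. Over all probes 3.96% passed as higher. Ctse, a cathepsin of antigen-presenting cells, held 4.49, 4.78 and 4.94 in RT-TMZ + Shef6 EV brains, against 4.19, 3.60, 3.84 and 3.66 in Control + Veh brains, with 1 untreated sample at its lowest value. The difference was 0.91 ± 0.19 (SE; limma, adjusted p = 0.0357). Lamp2, a lysosomal membrane protein, read 11.91, 12.18 and 12.30 in RT-TMZ + Shef6 EV brains, against 11.74, 11.73, 11.76 and 11.70 in Control + Veh brains. It differed by 0.40 ± 0.09 (SE; limma, adjusted p = 0.0441). Both lost the call without any 1 of the 4 Control + Veh samples.

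**Figure D3:**
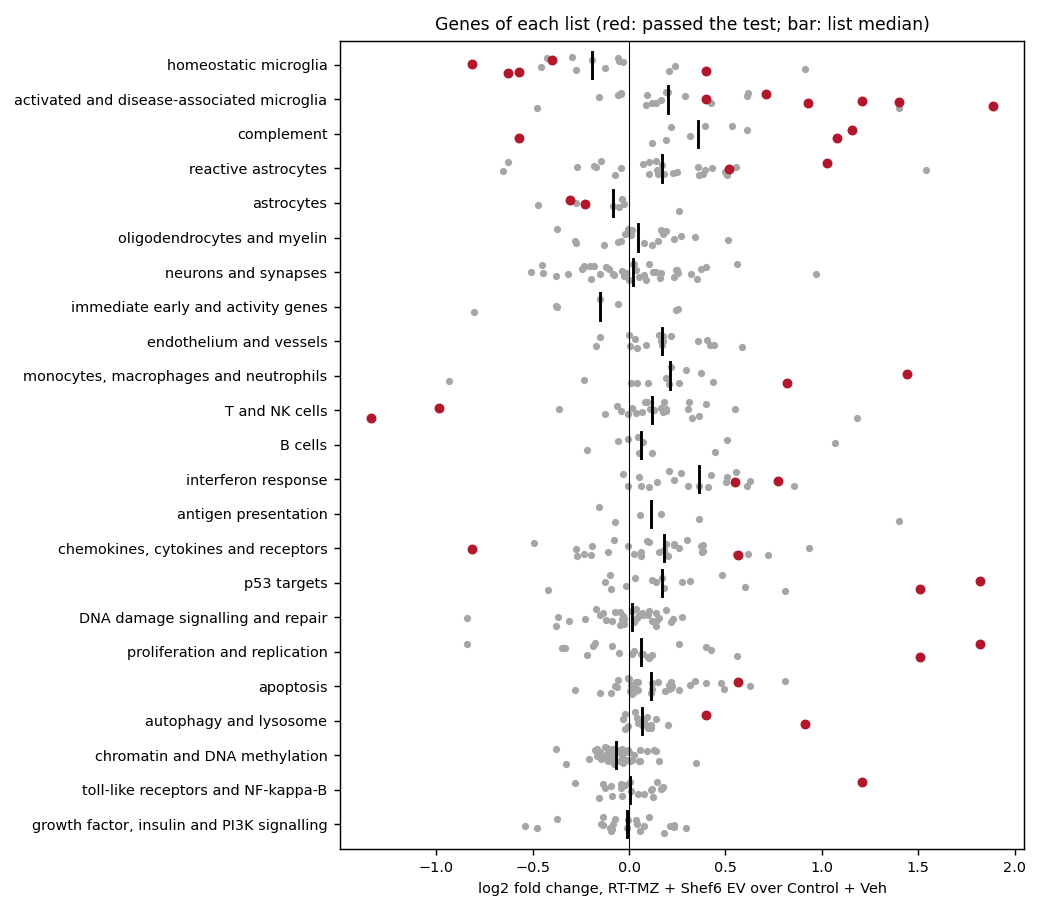
Log2 fold change of RT-TMZ + Shef6 EV over Control + Veh (x axis) for the measured genes of the 23 lists (rows). Each point is a gene, red where it passed the test, and the black bar is the list median, which is 0.36 for complement and for interferon response and -0.19 for homeostatic microglia. A gene on several lists appears in each.

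Of 14 genes of monocytes, macrophages and neutrophils, 2 rose and 7 were under background in both groups. Mmp12, the macrophage elastase, held 5.01, 5.51 and 4.89 in RT-TMZ + Shef6 EV brains, against 3.68, 4.11, 3.32 and 3.66 in Control + Veh brains, with 2 untreated samples at their lowest value. The measured difference was 1.44 ± 0.23 (SE; limma, adjusted p = 0.0174). Siglec1, a sialic acid receptor of macrophages, read 4.84, 4.45 and 4.42 in RT-TMZ + Shef6 EV brains, against 4.04, 3.48, 3.74 and 3.74 in Control + Veh brains. Its difference of 0.82 ± 0.18 (SE; limma, adjusted p = 0.0439) passed in 1 of the 7 fits without a sample.

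Ccr2, which defines infiltrating monocytes and was the only measured member of that marker set, stayed under background at 3.82, 3.92 and 4.20 in RT-TMZ + Shef6 EV brains, against 3.96, 3.70, 3.32 and 3.91 in Control + Veh brains. Igsf6, a little-studied myeloid receptor, was in neither set and read 5.37, 5.45 and 5.52 in RT-TMZ + Shef6 EV brains, against 4.04, 4.74, 4.18 and 4.14 in Control + Veh brains. Its difference was 1.17 ± 0.19 (SE; limma, adjusted p = 0.0174). In all, 8 of the 25 named genes that rose had a Control + Veh mean under background: Ly9, Mmp12, Msr1, Tlr2, Igsf6, Timp1, Ctse and Siglec1.

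Of 26 T and NK cell genes 2 fell, and 19 were under background in both groups. Lag3, an inhibitory receptor of T cells that microglia also express in mouse brain, held 6.09, 6.26 and 6.35 in RT-TMZ + Shef6 EV brains, against 7.37, 7.49, 6.88 and 7.14 in Control + Veh brains. The difference was -0.99 ± 0.16 (SE; limma, adjusted p = 0.0174). Tnfrsf25 read 6.61, 7.77 and 7.46 in RT-TMZ + Shef6 EV brains, against 8.47, 8.88, 8.47 and 8.65 in Control + Veh brains. Replicate 1 was the lowest, and the difference of -1.34 ± 0.26 (SE; limma, adjusted p = 0.0296) did not pass without any 1 of the Control + Veh samples. Of the 6 defining T and NK cell markers, 5 were under background in both groups, and their summed level was 7.11 to 7.36 in RT-TMZ + Shef6 EV brains and 7.15 to 7.43 in Control + Veh brains. Gzmb, a cytotoxic granule protease, was under background in both, at the lowest value of the sample in 2 of 3 RT-TMZ + Shef6 EV and 3 of 4 Control + Veh brains. No B cell gene of 10 passed. Cd72, a B cell and macrophage coreceptor, had the smallest p (difference 1.07; limma, adjusted p = 0.0762).

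Of 9 general astrocyte genes, 2 fell and 7 did not pass, and 8 were lower, with a median difference of -0.08. Slc1a3, the glutamate transporter GLAST, held 13.49, 13.51 and 13.60 in RT-TMZ + Shef6 EV brains, against 13.78, 13.84, 13.85 and 13.89 in Control + Veh brains. Gja1, the gap junction protein connexin 43, held 12.68, 12.63 and 12.78 in RT-TMZ + Shef6 EV brains, against 12.95, 12.93, 12.88 and 12.93 in Control + Veh brains. Both were lower in each treated sample, and the differences were small at -0.31 ± 0.05 and -0.23 ± 0.05 (SE; limma, adjusted p = 0.0174 and 0.0445). Neither passed after the samples were centred on their medians or without RT-TMZ + Shef6 EV replicate 2. RT-TMZ + Veh brains held 12.80, 12.93, 12.92 and 12.94 for Gja1, and their difference from Control + Veh was -0.03 (95% interval -0.12 to 0.07).

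Of 29 reactive astrocyte genes 2 rose, 21 were higher and the median difference was 0.17. Over all probes 3.96% passed as higher and 439 of 757 were higher. Timp1, an inhibitor of matrix metalloproteinases, held 4.43, 4.97 and 4.20 in RT-TMZ + Shef6 EV brains, against 3.49, 3.48, 3.39 and 3.66 in Control + Veh brains. As 3 of 4 untreated samples stood at their lowest value, the difference of 1.03 ± 0.20 (SE; limma, adjusted p = 0.0286) is limited by it. S1pr3, a receptor for sphingosine 1-phosphate, read 8.44, 8.49 and 8.61 in RT-TMZ + Shef6 EV brains, against 7.85, 8.15, 7.96 and 8.01 in Control + Veh brains (difference 0.52 ± 0.09, SE; limma, adjusted p = 0.0209). None of the list passed with RT-TMZ + Shef6 EV replicate 2 left out.

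Tmem100, a membrane protein of endothelium and sensory neurons that BMP signaling induces, was on none of the lists. It held 7.05, 6.95 and 6.95 in RT-TMZ + Shef6 EV brains, against 7.73, 8.05, 7.81 and 8.01 in Control + Veh brains. The treated values lay close together, and the difference was -0.92 ± 0.11 (SE; limma, adjusted p = 0.00566). RT-TMZ + Veh brains held 7.16, 7.38, 7.30 and 7.36, between the other groups and without overlap with either. Sox4, a transcription factor of immature neurons and progenitors, read 7.56, 7.61 and 7.58 in RT-TMZ + Shef6 EV brains, against 8.16, 8.14, 8.21 and 8.04 in Control + Veh brains (difference -0.55 ± 0.07, SE; limma, adjusted p = 0.00851). Fyn, a Src-family kinase of neurons and oligodendrocytes, read 11.73, 11.72 and 11.77 in RT-TMZ + Shef6 EV brains, against 12.03, 12.02, 11.96 and 11.96 in Control + Veh brains (difference -0.25 ± 0.04, SE; limma, adjusted p = 0.0174). Of 18 vessel genes none passed. In that list 16 were higher, where 439 of all 757 probes were, and the median difference was 0.17.

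No gene of the myelin list (20), the neuronal and synaptic list (41), the immediate early list (7), the chromatin list (47) or the growth factor and PI3K list (23) passed in limma. Median differences were 0.05, 0.02, -0.15, -0.07 and -0.01 in that order. In the chromatin list 35 genes were lower and 12 higher. Its smallest p belonged to the histone methyltransferase Dot1l, at 7.32, 7.62 and 7.43 in RT-TMZ + Shef6 EV brains, against 7.93, 7.92, 7.72 and 7.78 in Control + Veh brains (difference -0.38; limma, adjusted p = 0.0848). Jun, a subunit of the AP-1 transcription factor, held 10.43, 10.70 and 11.37 in RT-TMZ + Shef6 EV brains, against 11.53, 11.53, 11.62 and 11.88 in Control + Veh brains. The difference of -0.81 ± 0.21 (SE) did not pass (limma, adjusted p = 0.0734). Grm2, a presynaptic glutamate receptor, read 10.16, 9.84 and 9.72 in RT-TMZ + Shef6 EV brains, against 10.48, 10.20, 10.34 and 10.39 in Control + Veh brains (difference -0.45; limma, adjusted p = 0.0714).

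For Fos and Arc, from the immediate early list, the 3 vesicle-treated brains did not form 1 level. Fos, a subunit of AP-1 induced by neuronal activity, held 10.90, 11.03 and 7.63 in RT-TMZ + Shef6 EV brains, 8.63, 8.97, 7.52 and 8.08 in RT-TMZ + Veh brains and 10.25, 9.89, 10.35 and 10.44 in Control + Veh brains. Replicates 1 and 2 lay above all untreated brains, and replicate 3 lay near the lowest RT-TMZ + Veh brain. Arc, a synaptic protein induced with Fos, held 12.38, 12.85 and 10.28 in RT-TMZ + Shef6 EV brains, 10.90, 11.01, 10.19 and 10.36 in RT-TMZ + Veh brains and 12.02, 12.03, 12.25 and 11.64 in Control + Veh brains. It showed the same split, whereas Jun was highest in replicate 3. The differences from Control + Veh were -0.38 (95% interval -2.17 to 1.41) for Fos and -0.15 (-1.44 to 1.14) for Arc. Without replicate 3 they were 0.73 and 0.63, so their direction rested on that sample. In that fit Fos passed as higher (limma, adjusted p = 0.0172) and Arc did not pass (adjusted p = 0.0609).

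Mef2c and Tbr1, transcription factors of cortical neurons, were also lowest in replicate 3. Mef2c held 14.38, 14.10 and 11.91 in RT-TMZ + Shef6 EV brains, against 12.47, 12.17, 12.43 and 12.91 in Control + Veh brains. Tbr1 held 10.86, 10.78 and 9.18 in RT-TMZ + Shef6 EV brains, against 9.77, 9.40, 9.84 and 9.85 in Control + Veh brains. With replicate 3 left out 11 of the 41 genes of the neuronal list passed as higher and 4 as lower, against none with it. In that fit 8.98% of all probes passed as higher (68) and 6.21% as lower (47).

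A different sample stood apart for Ttr, the thyroid hormone carrier transthyretin that the choroid plexus makes in great amounts. It held 6.99, 14.13 and 14.79 in RT-TMZ + Shef6 EV brains, 6.67, 14.40, 14.43 and 12.84 in RT-TMZ + Veh brains and 9.19, 10.27, 6.72 and 7.02 in Control + Veh brains. The difference of 3.67 over Control + Veh had an SE of 1.89. Cdkn1c was lowest in the same sample, replicate 1, among vesicle-treated brains, and in replicate 1 among RT-TMZ + Veh brains, where Ttr was also lowest. The part of choroid plexus content or dissection in these values was not tested. Over the 674 genes with an RT-TMZ + Shef6 EV mean above background, the median range was 0.27 in RT-TMZ + Shef6 EV and 0.25 in Control + Veh, and 43 and 39 genes spanned more than 1 log2 unit. Among the 43, replicate 3 was the farthest from the mean for 24, replicate 1 for 17 and replicate 2 for 2.

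**Figure D4:**
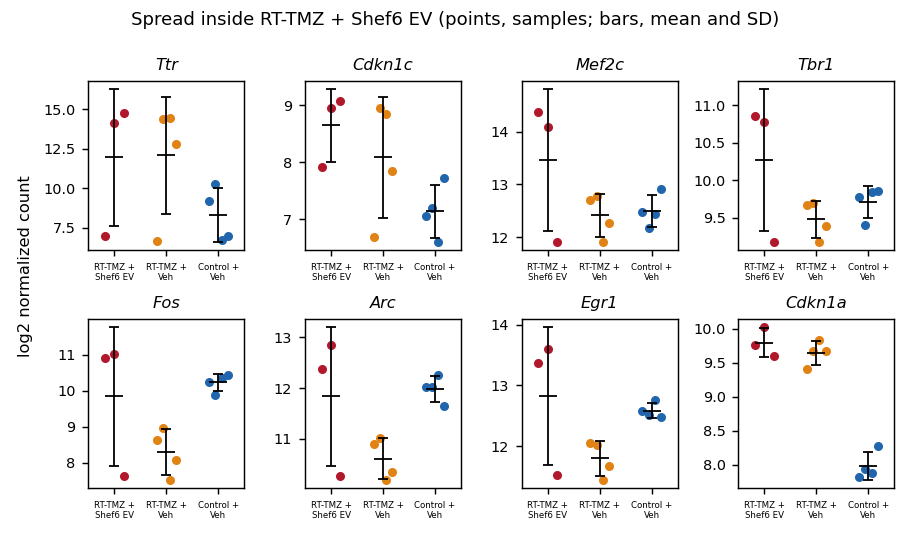
Log2 normalized counts (y axis, own scale per panel) of 7 genes that varied inside RT-TMZ + Shef6 EV, and of Cdkn1a. Points are samples, with the 3 of RT-TMZ + Shef6 EV on the left, the 4 of RT-TMZ + Veh in the middle and the 4 of Control + Veh on the right, and bars are mean and SD. Ttr has 1 vesicle-treated sample near 7 (6.99) and Fos 1 near 8 (7.63), while Cdkn1a has all 3 within 9.60 to 10.03.

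The same genes were set beside the animals that received no vesicles. In RT-TMZ + Veh over Control + Veh, 12.2% of probes passed as higher (92) and 5.68% as lower (43), a split that was 69 and 85 under quantile normalization. This comparison shares its 4 Control + Veh samples with the main one, so the values are given side by side and not tested for likeness. Cdkn1a differed by 1.82 in RT-TMZ + Shef6 EV and 1.67 in RT-TMZ + Veh, Lilrb4a by 1.89 and 2.37, C4a by 1.16 and 1.67, Cd84 by 0.71 and 1.13, Tnfrsf25 by -1.34 and -1.32 and Slc1a3 by -0.31 and -0.13, each over Control + Veh. On the activated microglia list 6 of 23 rose in RT-TMZ + Shef6 EV and 15 of 23 in RT-TMZ + Veh. On the reactive astrocyte list 2 of 29 and 10 of 29 rose. Over all probes 3.96% and 12.2% passed as higher, in the same order. The first comparison had 3 treated samples and the second 4, so the counts of calls are not on an equal footing. No member of either list passed between RT-TMZ + Shef6 EV and RT-TMZ + Veh. Whether either list as a whole differed between these groups was not tested.

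Set directly against RT-TMZ + Veh, no probe passed in RT-TMZ + Shef6 EV (limma, smallest adjusted p = 0.348), so 0% passed in either direction, while 20 probes in the higher and 72 in the lower direction had an unadjusted p under 0.05. The methods' t-test also called none. Without RT-TMZ + Shef6 EV replicate 3, 73 passed (34 higher and 39 lower). The 95% intervals of the difference between these groups, with all samples, are for single genes and are not adjusted for the number of probes. They were -0.15 to 0.45 for Cdkn1a, -0.85 to -0.11 for Lilrb4a, -0.64 to -0.20 for Cd84, -0.54 to -0.09 for Tmem100 and -0.64 to 0.62 for Tnfrsf25 on the log2 scale. Those of Lilrb4a, Cd84 and Tmem100 left out 0, but none of these genes passed. Mapk12, a stress-activated kinase, read 5.05, 5.42 and 5.28 in RT-TMZ + Shef6 EV brains, 4.86, 4.86, 4.63 and 4.98 in RT-TMZ + Veh brains and 5.29, 5.54, 5.10 and 5.42 in Control + Veh brains. It overlapped with Control + Veh (difference -0.09, 95% interval -0.45 to 0.27). Ppp3r2, a regulatory subunit of calcineurin, read 5.09, 5.21 and 5.28 in RT-TMZ + Shef6 EV brains, 4.36, 4.71, 5.32 and 4.53 in RT-TMZ + Veh brains and 5.85, 5.37, 5.14 and 6.17 in Control + Veh brains, and its difference from Control + Veh of -0.44 (95% interval -1.02 to 0.14) did not pass.

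**Figure D5:**
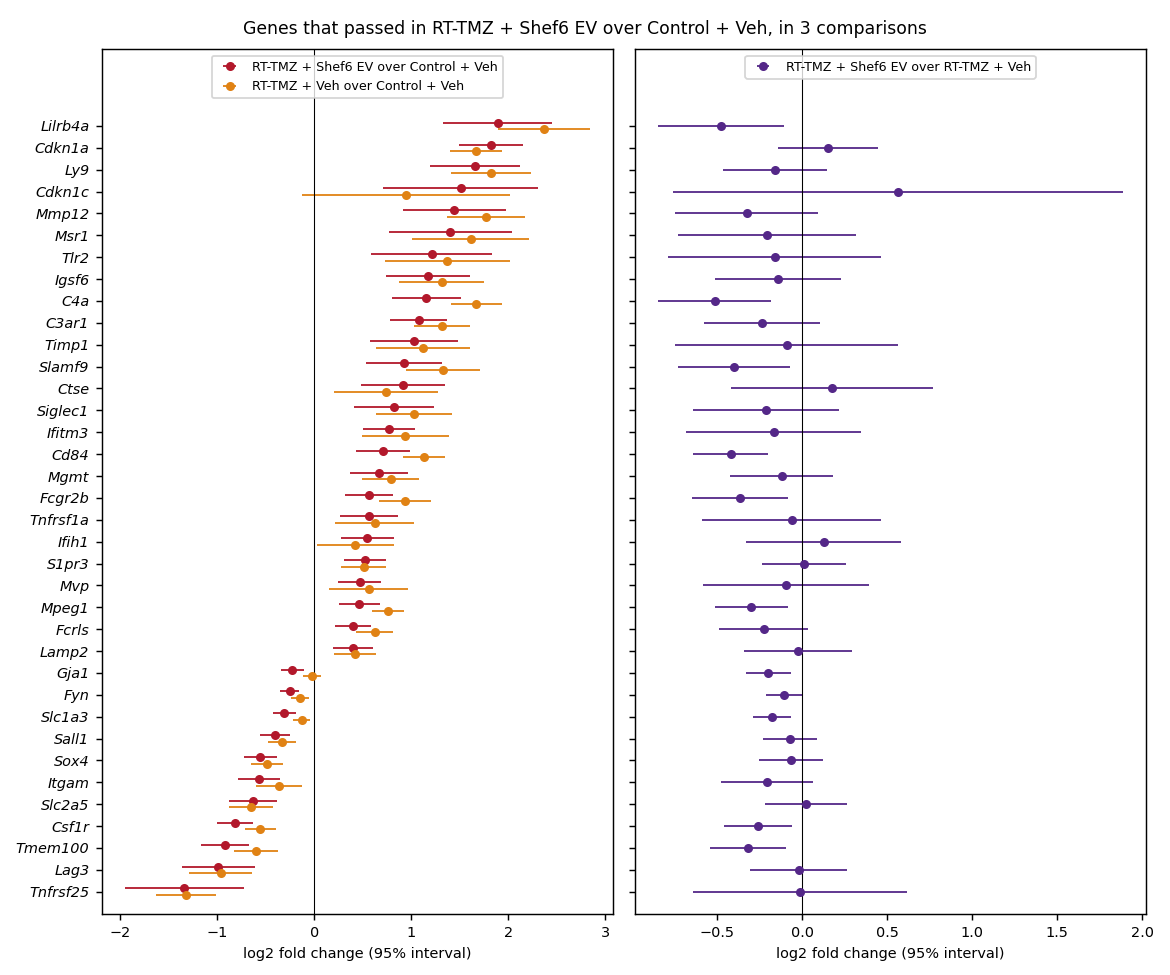
Log2 fold changes with 95% intervals (x axes) of the 36 named genes that passed in RT-TMZ + Shef6 EV over Control + Veh (rows). The left panel gives RT-TMZ + Shef6 EV (red) and RT-TMZ + Veh (orange), each over the same Control + Veh samples, and the right panel gives RT-TMZ + Shef6 EV over RT-TMZ + Veh, in which no gene passed. Cdkn1a lies at 1.82 and 1.67 on the left and at 0.15 on the right.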

How the data were processed

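Values were taken from the table deposited with the series, in which the authors give log2 normalized counts per probe, scaled in the nCounter software to positive control probes and to reference genes; raw counts were not used here. No background was subtracted by the authors as far as the sources used here state. Total counts were estimated from the spacing of low values, a step tested on simulated data. Groups came from the sample titles. Each comparison was fitted on its 2 groups alone with limma 3.58.1 (lmFit, eBayes with a mean trend) in R over all 757 probes, with Benjamini-Hochberg adjustment and a threshold of 0.05. In simulated data for RT-TMZ + Shef6 EV over Control + Veh (757 genes, 200 changed), 65% of changes of 0.5 and 91.3% of changes of 1 (log2) were found. The simulation drew each gene independently and changed more genes than passed here, so the shares found in these data may be lower. P-values measure the spread between these samples only. The gene lists (23), the markers and the comparison were chosen with earlier results of these data known, so no list is independent evidence. The genes named were the 12 largest rises and the falls (all 11) among genes that passed without overlap and above background, the called members of each list or else those with the smallest p, Ttr, Mef2c and genes the study named for the group; others are marked where they appear. In RT-TMZ + Shef6 EV against RT-TMZ + Veh, deviations of same-numbered samples correlated at 0.583, 0.319 and 0.474, so that comparison was also fitted with the replicate number as a block, which again gave 0 calls. Alternatives covered normalization, low values, the samples in the fit, the test, the trend, the block and leaving out each sample. Promoter letters came from RefSeq (GRCm38.p6). The labels and the methods differ on the dose per fraction, and the labels' value is given.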

Additional observations from a re-analysis of the deposited data

Results flagged for a closer look

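The named genes (82) were checked by Dixon's test in both groups of 4, where the group mean was above background. It looks for a sample whose gap to the nearest other is too large a share of the group's range. Chance gives this in about 1 in 20 groups. It was seen for 7 values, which is about what that rate gives over the groups checked. In Control + Veh these were C3ar1 at 6.71 and C4a at 9.98 in replicate 2 (the other samples at 6.44 to 6.47 and 9.55 to 9.59), Blnk at 6.98 and Pik3cb at 10.64 in replicate 4, Emcn at 7.99 in replicate 1 and Kdm5b at 11.00 in replicate 3. In RT-TMZ + Veh it was Gja1 at 12.80 in replicate 1, against 12.92 to 12.94 in the others. C3ar1 and C4a passed with and without Control + Veh replicate 2.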

How the results depend on the processing

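In RT-TMZ + Shef6 EV over Control + Veh, the 41 calls became 6 under the methods' t-test (two-sided, unequal variances; 3 higher and 3 lower) and 4 with the replicate block, and 8 to 115 when 1 sample was left out. All 41 probes kept their direction under every one of the 15 alternatives run, while 3 of them passed with the block. The replicate numbers did not pair these groups, with correlations of same-numbered deviations of -0.092, 0.136 and -0.26. RT-TMZ + Veh over Control + Veh gave 135 calls, 88 with all 7 groups in one fit, 60 under the t-test, 68 with the replicate block and 79 to 173 without 1 sample. RT-TMZ + Shef6 EV over RT-TMZ + Veh gave 0 to 73 without 1 sample and 0 under all other settings, the block among them. The shift of the sample medians was 0.0442 among genes above background and -0.035 to 0.05 without 1 sample. Single genes that changed sign did not pass in the main setting: without 1 sample, Arc ran from -0.655 to 0.63, Fos from -0.9675 to 0.7325, Egr1 from -0.145 to 0.895 (-0.025 without RT-TMZ + Shef6 EV replicate 1) and Mapk12 from -0.1725 to 0.0125, and Gzmb was -0.026 under quantile normalization. Over all 82 named genes, 1004 values kept their sign and their status, passed or not passed, so they include genes that passed in neither setting. A further 187 values lost a call that the main setting had, 32 gained one and 6 changed sign. The cause was not tested, except that leaving out a sample reduces the number of samples. With 3 brains in RT-TMZ + Shef6 EV, 65% of simulated differences of 0.5 were found, so a gene that did not pass is not shown to be unchanged. As that simulation drew genes independently and changed more genes than passed here, the share in these data may be lower.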
